A study of Drosophila melanogaster with 29 samples.

Results

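The basement membrane is a thin sheet of extracellular matrix that lines epithelia, muscles and other organs. In Drosophila, circulating blood cells and the fat body secrete most of its parts. Collagen IV trimers and laminin trimers form its networks, and perlecan, nidogen and smaller glycoproteins connect or modify them. Cells deposit the collagen IV network with help from the collagen-binding protein SPARC, and peroxidasin crosslinks it. The 10 genes described here are the collagen IV chains Col4a1 and vkg, the laminin chains LanA, LanB1 and LanB2, and SPARC, Ppn, trol, Ndg and Pxn. They were chosen by name and not by a threshold on their values. All 10 had a probe set that names the gene alone, out of 11982 genes with such a probe set. All 10 were among the 11677 genes tested, which excludes genes at the lower limit of the values on all arrays. The probe sets naming trol alone numbered 8 and those naming Pxn alone numbered 2. Of several probe sets the brightest on average was used. Levels are log2 signals, and since each probe set has its own brightness, levels are compared between samples and never between genes.

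The RNA came from S2 cells, a Drosophila cell line that was derived from embryos and resembles blood cells, and was measured on 29 arrays. Untreated cells, called Mock, gave 14 arrays. The other cells had 4 days of double-stranded RNA against dKDM2, dRING, PC, PH or PSC, with 3 arrays each. Polycomb repressive complex PRC1, a chromatin complex that keeps developmental genes silent, contains PC, PH, PSC and dRING, the product of Sce. The other target, dKDM2, is a histone demethylase. Mock cells had no double-stranded RNA, so exposure to it is common to all 5 depletions. The labels call the arrays biological replicates and name no separate cultures. The p-values therefore reflect array-to-array spread, part of which may be technical. In RNA from whole cultures, fewer cells expressing a gene and less RNA per cell cannot be told apart.

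Some arrays stood apart from the rest. Sce and Pc were lower on the arrays of their own depletions, with means of 3.63 against 8.04 in Mock for Sce and 4.39 against 6.60 for Pc. Sce was also below Mock on the dKDM2 (5.22) and PH arrays (5.38), whereas its PC and PSC means were 7.98 and 8.31. Psc was higher on the arrays labelled PSC (9.13 ± 0.42, SD, n = 3) than in Mock (6.77 ± 0.62, n = 14). Its means were above Mock in the other depletions too, with 10.24 for dKDM2, 9.31 for dRING, 9.54 for PC and 11.23 for PH, and the PSC mean was the lowest of the 5. The arrays labelled PSC therefore go against their label at that transcript and are named here by their label only. The mean signal of control RNAs added to the samples was 7.15 to 9.18 on the dKDM2 arrays and 9.09 to 9.61 on the PH arrays, against 2.96 to 7.12 on the Mock arrays. The deposited upper quartile was 5.62 to 6.31 on the PH arrays and 5.77 to 6.59 on the dKDM2 arrays, against 6.41 to 7.15 in Mock. Replicates 1 and 2 correlated more closely than either did with replicate 3 in Mock, dRING, PC and PSC, for example r = 0.9991 against 0.9911 in Mock, across the genes tested. The part of these differences in the results below was not tested.

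Of the 10 basement membrane genes, SPARC stood apart from the others. It was lower on every array of every depletion than on any Mock array. In single depletions, the share of all genes tested with all arrays below all Mock arrays ran from 1.46% (dRING) to 12.1% (PH). The share with this pattern in every depletion together was not computed. SPARC fell after dKDM2 and PH depletion and on the PSC-labelled arrays. The collagen IV chain vkg fell after PH depletion. Col4a1 and LanB1 fell on the arrays labelled PSC. After dRING and PC depletion none of the 10 passed the test. For most of the other genes the change over Mock depended on which of the 14 Mock arrays it was measured from. Mock arrays 1, 2 and 3 carried far more of most of these transcripts than the other 11. The falls of vkg after PH depletion and of Col4a1 and LanB1 on the PSC-labelled arrays kept their direction against Mock arrays 1 to 3. SPARC after dRING and PC depletion passed the test without Mock array 5.

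Counts against all 14 Mock arrays are given first, at an adjusted p under 0.05 in a limma model over all genes tested. After dKDM2 depletion 1 of the 10 genes was called, lower, where 33.1% of all genes tested were called in either direction. With 18.4% of genes called higher and 14.7% lower there, the split moved to 10.4% and 42.9% when each array was centred on its median. After dRING depletion limma called 0 of 10, with 2 at an unadjusted p under 0.05 and a background of 2.77%. After PC depletion limma called 0 of 10, with 3 at an unadjusted p under 0.05 and a background of 4.54%. After PH depletion 2 of 10 were called, both lower, against 34.9% of all genes, 19.6% higher and 15.4% lower (8.98% and 51.6% with median centring, which moved the median of all genes to -0.144). On the arrays labelled PSC 4 of 10 were called, 3 lower and 1 higher, against 16.5% of all genes, 6.51% lower and 9.99% higher. The median log2 fold change of the 10 genes was 0.22 for dKDM2, 0.38 for dRING and 0.57 for PC depletion. It was -0.40 for PH depletion and -1.57 on the arrays labelled PSC. Over all genes tested the median lay between -0.0032 and -0.0011. All 5 comparisons share the Mock arrays, so their values stand side by side here and are not independent of each other.

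**Figure D1:**
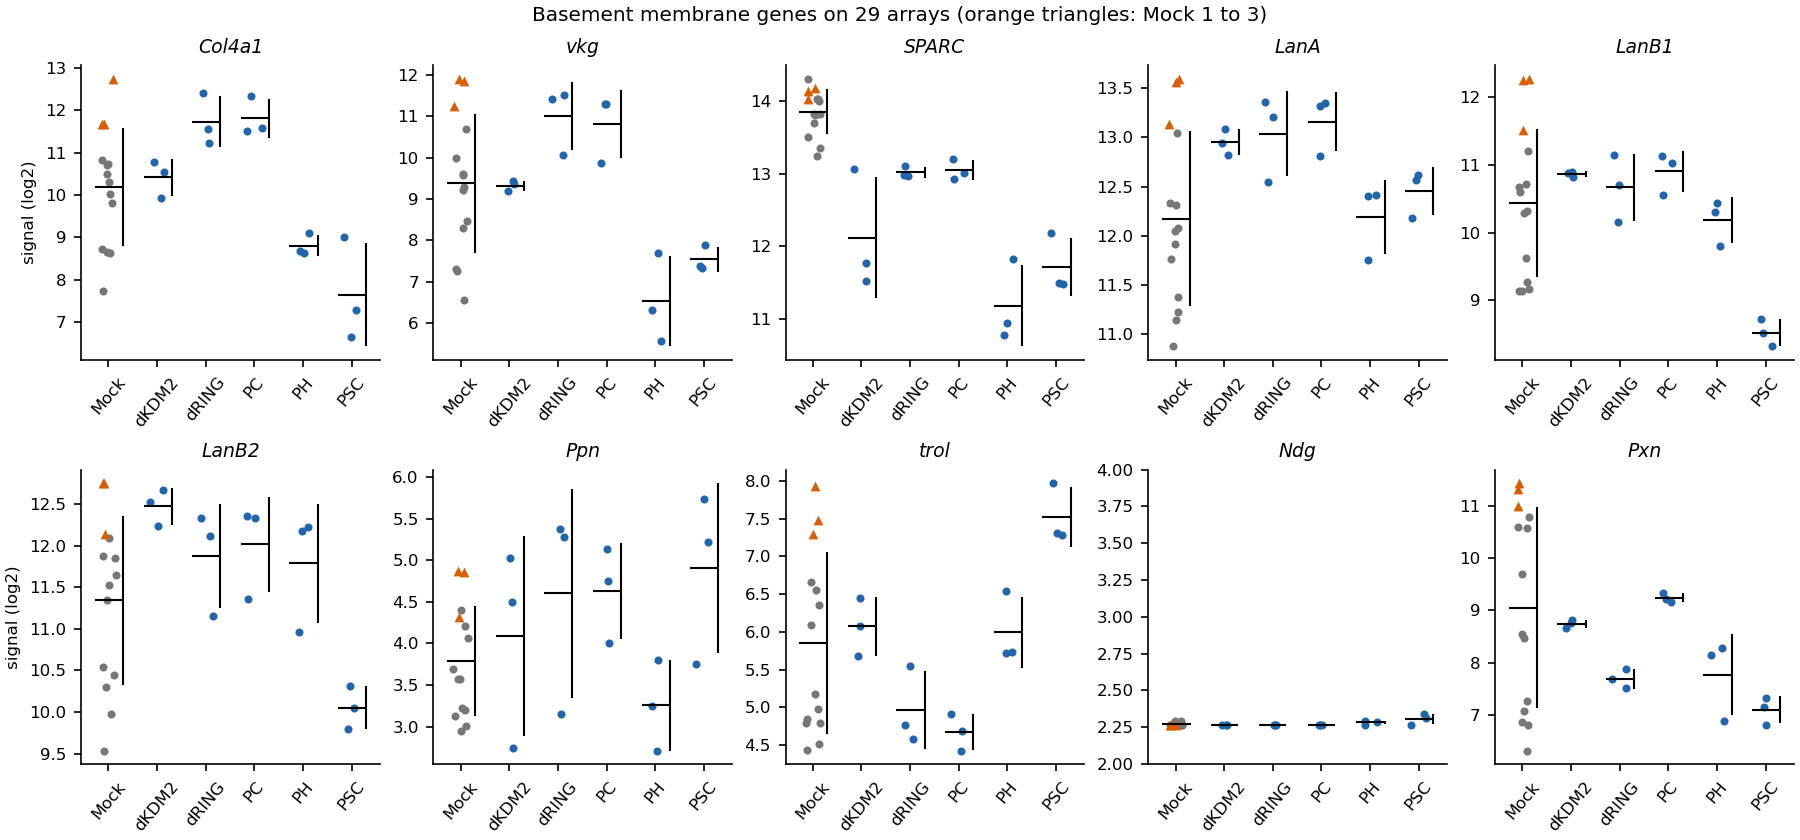
Signal (log2, vertical axes) of the 10 basement membrane genes on each of the 29 arrays, by group; each point is 1 array, the horizontal line is the group mean and the vertical bar is 1 SD. Orange triangles are Mock arrays 1 to 3, which are the 3 highest Mock arrays for 7 of the 10 genes, and SPARC is the gene whose 14 Mock arrays all lie above all depletion arrays.

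SPARC encodes a secreted glycoprotein that binds collagen IV and is needed for its deposition into basement membranes in Drosophila. Its signal in Mock ran from 13.25 through a median of 13.91 to 14.31, the tightest Mock group among the 9 genes that were not near the lower limit. The dRING arrays stood at 12.96, 12.98 and 13.11, and the PC arrays at 12.93, 13.01 and 13.20. Each of these 6 arrays lay below the lowest Mock array, which was Mock array 5.

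The dKDM2 arrays stood at 11.51, 11.77 and 13.07 and the PH arrays at 10.78, 10.94 and 11.82. The arrays labelled PSC stood at 11.48, 11.49 and 12.17. Replicate 3 was the highest of its 3 arrays in all 5 depletions. SPARC fell 6.38-fold after PH depletion (difference -2.67, SE 0.25, limma adjusted p = 2.15e-08). It fell 4.40-fold on the arrays labelled PSC (difference -2.14, SE 0.25, limma adjusted p = 1.16e-06) and 3.33-fold after dKDM2 depletion (-1.74, SE 0.25, limma adjusted p = 7.71e-06). These 3 calls held in every alternative run. Of all genes tested, 9.96% had all 3 dKDM2 arrays below all Mock arrays, 12.1% had all 3 PH arrays below them and 4.18% all 3 arrays labelled PSC.

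After dRING depletion the SPARC difference was -0.84 (SE 0.25, limma adjusted p = 0.0701) and after PC depletion -0.81 (SE 0.25, limma adjusted p = 0.0711), so neither passed the test. Of all genes tested, 1.46% had all 3 dRING arrays below all Mock arrays and 1.53% had all 3 PC arrays below them. Both differences passed the test without Mock array 5, without dKDM2 replicate 3, and with genes left out that were not above 4 on at least 3 arrays. Neither passed on the deposited values, with median centring or with replicates 1 and 2 averaged. When each array was left out in turn, the limma adjusted p reached 0.211 for dRING and 0.244 for PC. Without the dKDM2 and PH arrays in the fit, the adjusted p was 0.0200 for dRING and 0.0163 for PC. With Mock arrays 1 to 3 alone and the replicate number as a block, the differences were -1.10 and -1.07, with limma adjusted p of 0.0681 and 0.0564. SPARC ranked Mock, PC, dRING, dKDM2, PSC, PH from high to low, and no neighbours in that order differed at an adjusted p under 0.05.

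Col4a1 and vkg encode the 2 chains of Drosophila collagen IV, and they are neighbouring genes with 0 other genes starting between them in the annotation. Both were highest after PC and dRING depletion and lowest after PH depletion and on the arrays labelled PSC. Col4a1 in Mock ran from 7.75 through a median of 10.41 to 12.75. Its PC arrays stood at 11.51, 11.59 and 12.35 and its dRING arrays at 11.56, 11.24 and 12.41. All of these lay above the 11 Mock arrays numbered 4 to 14 and overlapped Mock arrays 1 to 3.

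The dKDM2 arrays, at 9.93, 10.54 and 10.79, lay in the middle of the Mock range for Col4a1. Its PH arrays stood at 8.69, 9.10 and 8.63, and the arrays labelled PSC at 6.65, 7.29 and 9.02. Replicates 1 and 2 labelled PSC lay below every Mock array, and replicate 3 lay within the Mock range. Col4a1 fell 5.86-fold on the arrays labelled PSC (difference -2.55, SE 0.71, limma adjusted p = 0.0134). The call was lost without PSC replicate 1 or replicate 2, with the difference at -2.05 at the smallest, and with replicates 1 and 2 averaged (-2.10, limma adjusted p = 0.149). With Mock arrays 1 to 3 and the replicate block the difference was -4.39 (limma adjusted p = 1.57e-05).

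In the other depletions the Col4a1 difference from Mock did not pass the test. It was 1.53 (SE 0.71, limma adjusted p = 0.257) after dRING and 1.62 (SE 0.71, limma adjusted p = 0.217) after PC depletion. Against Mock arrays 4 to 14 alone, a setting chosen after the data were seen, these became 2.04 (limma adjusted p = 0.0304) and 2.12 (limma adjusted p = 0.0216). Against Mock arrays 1 to 3 with the block they were -0.31 and -0.22, with a limma adjusted p of 1 for both. After PH depletion the difference was -1.40 (SE 0.71, limma adjusted p = 0.140) with all Mock arrays, and it passed the test on the deposited values (-2.09, limma adjusted p = 0.0148).

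The chain encoded by vkg varied more among Mock arrays than Col4a1, from 6.57 through a median of 9.44 to 11.91. Its PH arrays stood at 7.71, 6.31 and 5.56, with replicates 2 and 3 below every Mock array. The dRING arrays stood at 11.52, 11.43 and 10.07 and the PC arrays at 11.30, 11.30 and 9.87. The dKDM2 arrays, at 9.36, 9.19 and 9.43, lay closer together than in any other group, near the Mock median.

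The vkg signal fell 7.25-fold after PH depletion (difference -2.86, SE 0.84, limma adjusted p = 0.0101). Against Mock arrays 1 to 3 alone the difference was -5.15. Without PH replicate 3 the difference was -2.38 and was not called (limma adjusted p = 0.0746). On the arrays labelled PSC, at 7.40, 7.90 and 7.34, vkg did not pass the test against all Mock arrays (-1.84, SE 0.84, limma adjusted p = 0.157). It did with Mock arrays 1 to 3 and the block (-4.13, limma adjusted p = 3.99e-05). After dRING and PC depletion its differences of 1.63 and 1.44 (SE 0.84 for both) had limma adjusted p of 0.332 and 0.420.

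Laminin is a trimer of the chain encoded by LanA (alpha), the chain encoded by LanB1 (beta) and the chain encoded by LanB2 (gamma), and its network is laid down first in a new basement membrane. The chains did not move alike on the arrays labelled PSC, where LanB1 fell and LanA lay within the Mock range. LanB1 in Mock ran from 9.14 through a median of 10.46 to 12.27. The arrays labelled PSC stood at 8.52, 8.73 and 8.32, all below every Mock array, a pattern that 4.18% of all genes tested showed. LanB1 fell 3.78-fold there (difference -1.92, SE 0.53, limma adjusted p = 0.0126). The call was lost without PSC replicate 1 or replicate 3 (limma adjusted p up to 0.0608) and with replicates 1 and 2 averaged (-1.83, limma adjusted p = 0.0582), and the block gave -3.49 (limma adjusted p = 2.46e-07).

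In the 4 other depletions LanB1 stayed within the Mock range and did not pass the test against all Mock arrays. The dKDM2 arrays stood at 10.88, 10.83 and 10.90, the dRING arrays at 11.15, 10.70 and 10.16 and the PC arrays at 11.03, 11.13 and 10.56. Its PH arrays stood at 10.44, 10.31 and 9.80. All of these 12 arrays lay below Mock arrays 1 to 3 and between the lowest and highest of the other Mock arrays. The difference from all Mock arrays was 0.43 (dKDM2), 0.23 (dRING), 0.47 (PC) and -0.26 (PH), with an SE of 0.53 for each. With Mock arrays 1 to 3 and the block it was -1.34 after dRING (limma adjusted p = 0.00189) and -1.11 after PC depletion (limma adjusted p = 0.00364).

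LanB2 in Mock ran from 9.53 through a median of 11.59 to 12.76. The arrays labelled PSC stood at 10.05, 10.31 and 9.79, in the lower part of the Mock range. The difference of -1.29 (SE 0.52) did not pass the test (limma adjusted p = 0.0984), was called without Mock array 5 (limma adjusted p = 0.0399), and was -2.50 with the block (limma adjusted p = 6.09e-06). The dKDM2 arrays were the highest group, at 12.68, 12.52 and 12.24, with a difference of 1.14 (SE 0.52, limma adjusted p = 0.104) that passed the test against Mock arrays 4 to 14 alone (1.47, limma adjusted p = 0.0166). Its dRING arrays ran from 11.16 to 12.33, its PC arrays from 11.36 to 12.36 and its PH arrays from 10.96 to 12.22.

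LanA differed least between groups among the laminin chains. Its Mock arrays ran from 10.88 through a median of 12.06 to 13.60, and all 15 depletion arrays lay between 11.75 and 13.36, within that range. The differences from Mock were 0.78 after dKDM2 and 0.86 after dRING depletion, 0.99 after PC and 0.02 after PH depletion, and 0.28 for PSC (SE 0.44 for each), with limma adjusted p from 0.198 to 1. Against Mock arrays 4 to 14 alone it passed the test, higher, after dKDM2 (1.12, limma adjusted p = 0.00928), dRING (1.21, limma adjusted p = 0.0225) and PC depletion (1.33, limma adjusted p = 0.0107). Against Mock arrays 1 to 3 with the block it was lower on the arrays labelled PSC (-0.98, limma adjusted p = 0.000389).

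The trol gene encodes perlecan, a heparan sulfate proteoglycan of the basement membrane. It was highest on the arrays labelled PSC and lowest after PC depletion. Mock arrays ran from 4.44 through a median of 5.64 to 7.94. The arrays labelled PSC stood at 7.31, 7.97 and 7.28, above the 11 Mock arrays numbered 4 to 14. The PC arrays stood at 4.43, 4.68 and 4.91 and the dRING arrays at 4.58, 4.77 and 5.55. The lowest PC array lay just below the lowest Mock array, and the other 5 lay in the lower part of the Mock range.

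On the arrays labelled PSC the trol difference was 1.67 (SE 0.59, limma adjusted p = 0.0541), just outside the threshold. It passed without Mock array 1, 2, 3 or 5 and against Mock arrays 4 to 14 alone (2.14, limma adjusted p = 0.00109). With Mock arrays 1 to 3 and the block it was -0.05. After dRING depletion the difference was -0.88 (SE 0.59, limma adjusted p = 0.531) with all Mock arrays and -2.60 with the block (limma adjusted p = 0.00127). After PC depletion it was -1.18 (SE 0.59, limma adjusted p = 0.310) and -2.90 with the block (limma adjusted p = 0.000432). After dKDM2 (5.68 to 6.45) and PH depletion (5.72 to 6.54) trol lay near the Mock median, with differences of 0.22 and 0.14.

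**Figure D2:**
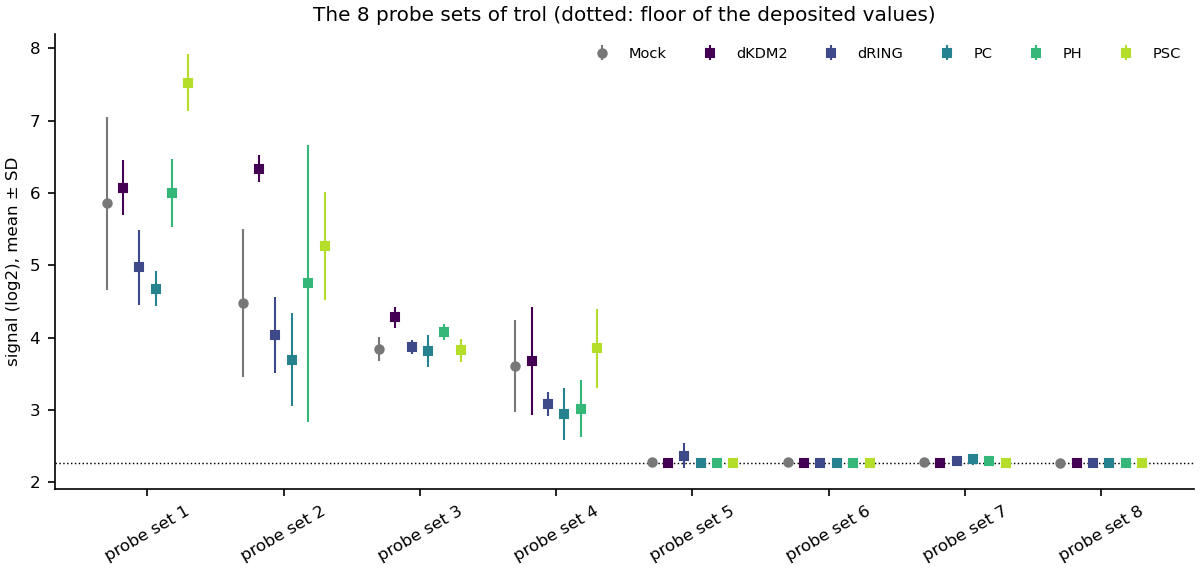
Signal (log2, vertical axis) of the 8 probe sets that name trol alone, ordered by mean, by group; points are group means, bars are 1 SD over 14 Mock arrays or 3 arrays per depletion, and the dotted line is the lower limit of the deposited values. Probe sets 5 to 8 lie at or near the limit in all 6 groups, and probe set 2 is the one with the highest dKDM2 mean relative to Mock.

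The probe sets of trol did not give 1 pattern. In a fit over 18007 probe sets, 2 of the 8 rose after dKDM2 depletion, where 27.4% of all probe sets were called. The second brightest stood at 4.47 ± 1.02 (SD, n = 14) in Mock and 6.33 ± 0.19 (n = 3) after dKDM2 depletion, and the third at 3.84 ± 0.17 and 4.28 ± 0.15. The brightest, used above, was not called. In the other 4 comparisons limma called 0 of the 8, with backgrounds of 1.92% for dRING, 3.14% for PC, 30.6% for PH and 11.9% for PSC. Which transcripts each probe set detects was not analysed here.

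Pxn encodes peroxidasin, the enzyme that crosslinks collagen IV. It varied more among Mock arrays than any other of the 10 genes, from 6.31 through a median of 9.12 to 11.45. The dRING arrays stood at 7.88, 7.50 and 7.68, the PC arrays at 9.16, 9.23 and 9.34 and the dKDM2 arrays at 8.81, 8.66 and 8.76. The PH arrays stood at 8.14, 8.29 and 6.88 and the arrays labelled PSC at 6.81, 7.15 and 7.31. Every one of these 15 arrays lay within the range of Mock arrays 4 to 14 and below Mock arrays 1 to 3.

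Against all Mock arrays the Pxn differences were -0.31 after dKDM2 and -1.37 after dRING depletion, 0.18 after PC and -1.29 after PH depletion, and -1.96 for PSC (SE 0.91 for each), and none passed the test. Against Mock arrays 1 to 3 with the block all 5 did. They were then -3.57 after dRING (limma adjusted p = 0.000103), -2.02 after PC (limma adjusted p = 0.00266) and -4.17 on the arrays labelled PSC (limma adjusted p = 4.68e-06). The block values for dKDM2 and PH, whose numbers do not pair with those of Mock, were -2.52 and -3.49. The second Pxn probe set was at the lower limit on most arrays and gave no call.

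Ppn, which encodes papilin, a glycoprotein of the basement membrane, was dim, with Mock arrays from 2.95 through a median of 3.63 to 4.86. Its depletion arrays ran from 2.71 to 5.73 and the replicates disagreed, for instance 2.74, 4.50 and 5.02 after dKDM2 depletion. On the arrays labelled PSC, at 5.22, 5.73 and 3.76, the difference was 1.11 (SE 0.51, limma adjusted p = 0.153). Its other differences ran from -0.54 to 0.84 and none passed the test.

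Ndg, which encodes nidogen, a linker between the laminin and collagen IV networks, gave almost no signal. It was at the lower limit of 2.27 on 11 of 14 Mock arrays, on all 3 dKDM2, dRING and PC arrays, and on 1 PH array and 1 array labelled PSC. Its highest value on any array was 2.34. It was called higher on the arrays labelled PSC by 0.03 on the log2 scale (limma adjusted p = 0.00608), a call that was not kept on the deposited values, with median centring or with the block.

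The Mock arrays were examined because the spread among them set the precision of every comparison above. For 5490 genes above 4 on the log2 scale on at least 15 arrays the median SD among Mock arrays was 0.571. The SD was 1.92 for Pxn, larger than for 99.7% of these genes, 1.69 for vkg (99.6%), 1.39 for Col4a1 (98.8%), 1.20 for trol (97.2%) and 1.10 for LanB1 (95.1%). LanB2 and LanA followed with 1.02 (92.9%) and 0.89 (86.3%), and Ppn with 0.66 (64.1%). SPARC was the exception with 0.31, larger than for 8.63% of these genes.

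Mock arrays 1, 2 and 3 were the 3 highest Mock arrays for Col4a1, vkg, LanA, LanB1, LanB2, trol and Pxn, 7 of the 10 genes. Of all genes tested, 3.15% had Mock arrays 1 to 3 above all other Mock arrays and 3.13% had them below. For Pxn they stood between 11.01 and 11.45, against a median of 8.47 over the other 11. For vkg they stood between 11.26 and 11.91, against a median of 9.22. For SPARC they stood between 14.02 and 14.18, with Mock array 10 above them. The labels give the Mock arrays numbers from 1 to 14 and state no date or batch.

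Each depletion carries the numbers 1 to 3. By the check on deviations these numbers pair Mock with dRING, PC and PSC. That check cannot tell number 1 from number 2, which were nearly alike in these 4 groups. Within a number, SPARC, Col4a1, vkg, LanA, LanB1 and Pxn were lower than in Mock for all 3 numbers in all 5 depletions. For Col4a1 after PC depletion these differences were small, -0.18, -0.09 and -0.40. For Col4a1 on the arrays labelled PSC they were -5.04, -4.39 and -3.74. LanB2 was lower for all 3 numbers except in dKDM2, where 1 of 3 was higher, and trol except on the arrays labelled PSC, where 2 of 3 were higher. Values within a number rest on 3 of the 14 Mock arrays, and all 5 depletions reuse these 3. They were the 3 highest Mock arrays for Col4a1, vkg, LanA, LanB1, LanB2, trol and Pxn, so the shared sign depends on that reference. The numbers do not pair dKDM2 or PH with Mock. The share of all genes with such a pattern was not computed.

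Counted against Mock arrays 1 to 3 with the block, 3 of the 10 genes were called after dRING (background 2.32%), 3 after PC (3.79%) and 7 on the arrays labelled PSC (13.4%), all lower. The 3 after dRING and the 3 after PC depletion were LanB1, trol and Pxn. Against Mock arrays 1 to 3 without the block, 6 were called after dKDM2 (background 23%), 3 after dRING (1.31%), 2 after PC (2.23%), 7 after PH (25.9%) and 7 on the arrays labelled PSC (9.63%), all lower. Against Mock arrays 4 to 14 alone, 3 were called after dKDM2 (background 33.5%), SPARC lower and LanA and LanB2 higher. In that setting 3 were called after dRING (8.56%) and 2 after PC depletion (9.19%), all higher. Which Mock arrays match the depletions in time or culture is not given in the sources used here, and the part of this in the results was not tested.

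**Figure D3:**
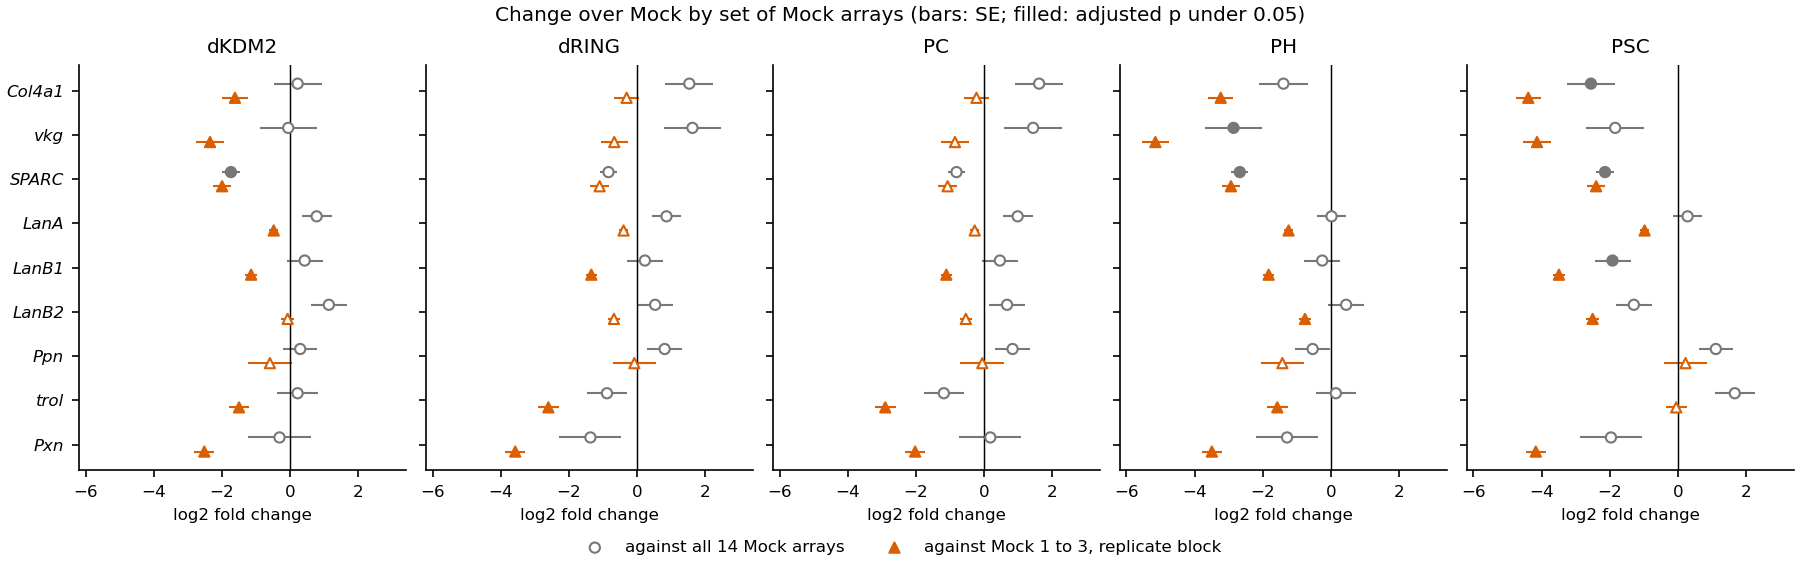
Log2 fold change over Mock (horizontal axes) of 9 basement membrane genes in each depletion; grey circles use all 14 Mock arrays, orange triangles use Mock arrays 1 to 3 with the replicate number as a block, bars are 1 SE and filled symbols have an adjusted p under 0.05. The SPARC symbols lie close together in all 5 panels, and the orange symbols of the other 8 genes lie to the left of the grey ones. The block is no paired test for dKDM2 and PH. Ndg, near the lower limit, is not drawn.

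Differences between depletions do not use the level of Mock, although the Mock arrays still enter the estimate of the spread. The depletions fell into those with high collagen IV transcripts, dRING and PC, and those with low ones, PH and PSC. In the 10 comparisons between depletions 17 of 100 member tests were called, where 10.3% of the tests over all genes were. The count was 39 when the spread was taken from Mock arrays 1 to 3 and the depletions (13% over all genes) and 53 with the block (17.1%). With replicates 1 and 2 averaged it was 9 (6.19%), and it was 10 without PSC replicate 2 (9.26%). By the check on deviations the replicate numbers pair dRING, PC and PSC with each other and, weakly, dKDM2 with PH. For dRING, PC and PSC it cannot tell number 1 from number 2. The numbers do not pair dKDM2 or PH with dRING, PC or PSC, so the block is a paired test in at most 4 of the 10 comparisons.

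Signal of vkg was 22.4-fold higher after dRING than after PH depletion (log2 difference 4.48, SE 1.08, limma adjusted p = 0.00502) and 19.7-fold higher after PC than after PH depletion (4.30, SE 1.08, limma adjusted p = 0.00727). All 3 arrays lay above all 3 in both, as they did for 17.7% of all genes tested between dRING and PH and 17.8% between PC and PH. Col4a1 was 18.0-fold higher after PC depletion than on the arrays labelled PSC (4.17, SE 0.91, limma adjusted p = 0.00544) and 17.0-fold higher after dRING depletion than on them (4.08, SE 0.91, limma adjusted p = 0.00758). Between dRING and PC depletion Col4a1 differed by -0.08 (SE 0.91) and vkg by 0.18 (SE 1.08).

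Among all genes tested 16.6% were called between dRING and PH, where 3 of the 10 were called (Col4a1, vkg and SPARC), and 16.1% between PC and PH, where the same 3 genes were called. Between PC and PSC 3.93% of all genes were called and 5 of the 10. These were Col4a1, SPARC and LanB1, higher after PC depletion, and trol and Ndg, lower there. With the block 8 of the 10 were called between PC and PSC, against 8.64% of all genes. Ndg was then not called, and vkg (3.28), LanA (0.70), LanB2 (1.97) and Pxn (2.15) were called higher after PC depletion, with limma adjusted p from 3.72e-05 to 0.00502. Between dRING and PSC 3.37% of all genes were called and 2 of the 10, Col4a1 and SPARC. With the block 7 were called there, against 7.80% of all genes. Those added were vkg (3.47), LanA (0.58), LanB1 (2.15) and LanB2 (1.82), higher after dRING depletion, and trol (-2.55), lower, with limma adjusted p from 1.07e-05 to 0.0170. Between dKDM2 and PSC 16.4% were called and 4 of the 10, with Col4a1, LanB1 and LanB2 higher after dKDM2 depletion and Ndg lower.

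The trol signal was 7.20-fold lower after PC depletion than on the arrays labelled PSC (log2 difference -2.85, SE 0.76, limma adjusted p = 0.0282), opposite in sign to Col4a1, LanB1 and SPARC in that comparison. LanB2 was 5.38-fold higher after dKDM2 depletion than on the arrays labelled PSC (2.43, SE 0.67, limma adjusted p = 0.0132). For dKDM2 set against dRING, PC and PH, of dRING with PC, and of PH with PSC, limma called 0 of the 10 with all Mock arrays in the fit, where backgrounds were 13.7%, 13.1%, 2.46%, 0.223% and 17.4%. At an unadjusted p under 0.05 the counts were 1 (SPARC), 1 (SPARC), 2 (SPARC and vkg), 0 and 4 (LanB1, LanB2, Ppn and Ndg). With the block 4 of the 10 were called between dKDM2 and PH (5.92% of all genes), where the pairing by number is weak. These were Col4a1 (1.62), vkg (2.80), LanA (0.76) and LanB1 (0.68), higher after dKDM2 depletion, with limma adjusted p from 0.00233 to 0.0360. Between dRING and PC the block gave 0 of the 10 (0.343% of all genes). The other 3 comparisons are not paired by the numbers.

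Genes that process and secrete collagen were examined as a list of 19, of which 16 were measured. After PH depletion 2 rose and 2 fell, a share of 25% against 34.9% of all genes. For PSC 3 rose and 2 fell, 31.2% against 16.5%. PH4alphaEFB, a prolyl 4-hydroxylase that modifies collagen, stood at 11.48 ± 0.32 (SD, n = 14) in Mock, 10.08 ± 0.52 (n = 3) after PH depletion and 10.53 ± 0.45 on the arrays labelled PSC. It fell by 1.41 on the log2 scale after PH depletion (SE 0.25, limma adjusted p = 9.82e-05) and by 0.96 on the arrays labelled PSC (SE 0.25, limma adjusted p = 0.00915), the second call being lost without PSC replicate 1 or 2. All 3 PH arrays lay below all Mock arrays, as for 12.1% of all genes, and so did all 3 labelled PSC, as for 4.18%.

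Tango1, which loads collagen at endoplasmic reticulum exit sites, rose after dKDM2 (2.52, SE 0.47, limma adjusted p = 0.000172), dRING (1.90, SE 0.47, limma adjusted p = 0.0280) and PH depletion (1.84, SE 0.47, limma adjusted p = 0.00351). As for the collagen genes, Mock arrays 1 to 3 were its 3 highest Mock arrays. The dRING call was lost without any 1 of the 3 dRING arrays. With the block its differences were 1.04 after dKDM2, 0.43 after dRING (limma adjusted p = 0.367) and 0.36 after PH depletion (limma adjusted p = 0.152). For dKDM2 and PH these are no paired test. Crag, an exchange factor for Rab10 in basement membrane secretion, rose after dKDM2 (1.71), dRING (0.93) and PH depletion (2.17) and for PSC (0.93). Under the block the dRING and PSC values were 0.27 for both and were not called. The dRING call of Crag (limma adjusted p = 0.0478) was also lost on the deposited values and without any 1 of the 3 dRING arrays. The COPII coat gene Sec24AB rose after dKDM2 depletion by 2.32 (SE 0.61, limma adjusted p = 0.00431). Against Mock arrays 1 to 3 without the block its difference was 1.52 and was not called (limma adjusted p = 0.229).

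In the 2 depletions with the strongest control RNA signals the balance of this list moved with the scaling. After PH depletion it was 2 higher and 2 lower in the main scaling, 3 and 3 on the deposited values and 1 and 9 with median centring. After dKDM2 depletion it was 4 and 1, 3 and 4, and 3 and 7. In the main scaling the share called after dKDM2 depletion was 31.2% against 33.1% of all genes. After dRING depletion 2 rose and 0 fell, 12.5% against 2.77%, and neither was called on the deposited values. After PC depletion 1 rose, 6.25% against 4.54%. It was Pdi, by 0.03 near the lower limit.

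Receptors for the matrix were a list of 13, of which 12 were measured. After dKDM2 depletion 7 rose and 0 fell, a share of 58.3% against 33.1% of all genes, and after PH depletion 6 rose and 0 fell, against 34.9%. Among genes above 4 on at least 3 arrays, 58.9% were called after dKDM2 and 58.6% after PH depletion. The dKDM2 calls include Ddr, by 0.21 near the lower limit. They also include dlp, whose call was lost on the deposited values and without dKDM2 replicate 2. The PH calls include Dg, at the lower limit on 12 of 14 Mock arrays and 1 PH array. The median log2 fold change of the list was 1.17 after dKDM2 and 1.39 after PH depletion. With median centring the counts were 6 higher and 1 lower after dKDM2 and 6 and 2 after PH depletion, with medians of 0.54 and 0.81, and on the deposited values the medians were 0.63 and 0.95. Against Mock arrays 1 to 3 alone 4 of the 12 rose after dKDM2 depletion, where 23% of all genes were called, and 7 rose after PH depletion, where 25.9% were.

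The integrin beta subunit gene mys stood at 10.92 ± 0.60 (SD, n = 14) in Mock, 12.91 ± 0.41 (n = 3) after dKDM2 and 13.75 ± 0.40 after PH depletion. It rose by 1.99 after dKDM2 (SE 0.33, limma adjusted p = 4.34e-05) and by 2.83 after PH depletion (SE 0.33, limma adjusted p = 3.85e-07). Itgbn, the other integrin beta subunit gene, rose by 4.47 after PH (SE 0.65, limma adjusted p = 7.15e-06) and 2.78 after dKDM2 depletion. Sdc, which encodes the proteoglycan syndecan, rose by 2.77 after PH and 2.35 after dKDM2 depletion. Lar, a receptor tyrosine phosphatase that binds heparan sulfate proteoglycans, rose by 3.38 after dKDM2 depletion (SE 0.30, limma adjusted p = 7.13e-09). The calls of these 4 genes were kept against Mock arrays 1 to 3, without the block and with it. For dKDM2 and PH the block is no paired test.

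In the other groups fewer receptor genes were called, and so were fewer of all genes. After dRING depletion limma called 0 of 12, with 2 at an unadjusted p under 0.05 and a background of 2.77%. After PC depletion 1 rose, a share of 8.33% against 4.54% of all genes. It was the integrin alpha subunit gene if, by 0.27, a call not kept with the block (limma adjusted p = 0.244). On the arrays labelled PSC 3 rose and 1 fell, a share of 33.3% against 16.5% of all genes. Of those that rose, scb (1.27) and Lar (0.89) were not called against Mock arrays 1 to 3, with or without the block. The glypican gene dlp rose on the arrays labelled PSC by 2.28 (SE 0.42, limma adjusted p = 0.000337). The integrin alpha subunit gene mew fell there by 1.68 on the log2 scale (SE 0.47, limma adjusted p = 0.0150), a call lost without PSC replicate 1 or 2.

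Among 12 measured genes of other matrix components, Tsf2, a transferrin, was called in every depletion. It rose by 2.69 after dKDM2 depletion, by 2.00 after PH depletion and by 1.64 on the arrays labelled PSC. After dRING (0.73) and PC depletion (0.80) its call was lost without dRING replicate 1, 2 or 3 and without PC replicate 1 or 3. Glt, which encodes glutactin, a basement membrane glycoprotein, stood at 10.36 ± 1.70 (SD, n = 14) in Mock and 5.81 ± 0.76 (n = 3) on the arrays labelled PSC, and it fell there by 4.55 on the log2 scale (SE 0.91, limma adjusted p = 0.000815). The 3 arrays lay below all Mock arrays, as for 4.18% of all genes. Hml, which encodes hemolectin, a clotting protein of blood cells, stood at 3.29 ± 0.15 (SD, n = 14) in Mock and 4.88 ± 0.44 (n = 3) after PC depletion, and it rose there by 1.58 (SE 0.14, limma adjusted p = 6.48e-08), a call kept with the block. In the whole list 2 rose and 0 fell for dKDM2, a share of 16.7% against 33.1% of all genes. The counts were 1 and 0 for dRING (8.33% against 2.77%) and 4 and 0 for PC depletion (33.3% against 4.54%). They were 1 and 1 for PH depletion (16.7% against 34.9%) and 3 and 1 for the arrays labelled PSC (33.3% against 16.5%). Against Mock arrays 1 to 3, with or without the block, wb and fon were not called after PC depletion, nor fon after dKDM2 depletion. These 2 genes had differences of 0.06 to 0.30.

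Matrix turnover was a list of 7 genes, 6 of them measured. The ADAM protease gene kuz rose by 2.59 after dKDM2 (SE 0.52, limma adjusted p = 0.000327) and 2.74 after PH depletion (SE 0.52, limma adjusted p = 0.000176). The matrix metalloproteinase gene Mmp2 fell by 1.90 on the log2 scale after PH depletion (SE 0.55, limma adjusted p = 0.00897). AdamTS-B, at the lower limit on 13 of 14 Mock arrays, rose by 1.31 on the arrays labelled PSC (SE 0.12, limma adjusted p = 2.76e-08). In the whole list 1 rose and 0 fell after dKDM2 depletion, a share of 16.7% against 33.1% of all genes. After PH depletion 1 rose and 1 fell (33.3% against 34.9%), and on the arrays labelled PSC 1 rose and 0 fell (16.7% against 16.5%). After dRING and PC depletion limma called 0 of 6, with 0 at an unadjusted p under 0.05 and backgrounds of 2.77% and 4.54%.

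**Figure D4:**
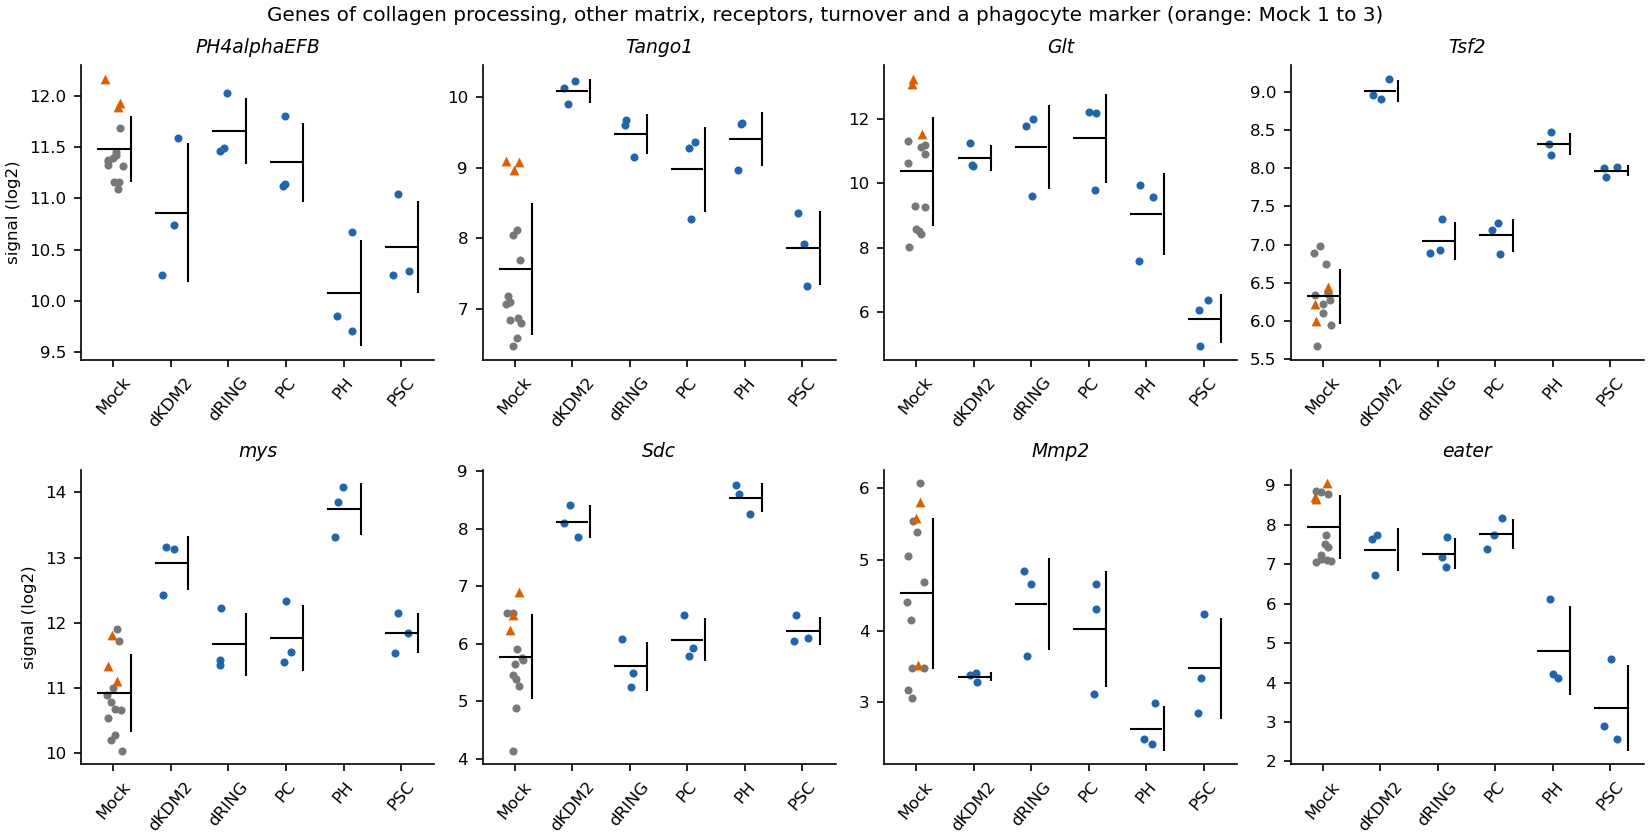
Signal (log2, vertical axes) of 8 genes from the lists of collagen processing (PH4alphaEFB, Tango1), other matrix (Glt, Tsf2), receptors (mys, Sdc), turnover (Mmp2) and plasmatocyte markers (eater) on the 29 arrays; points are arrays, horizontal lines are group means and vertical bars are 1 SD. Orange triangles are Mock arrays 1 to 3, which are the highest 3 for Tango1 and spread through the Mock range for Tsf2.

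Markers of blood cell types were set beside these results. All 9 plasmatocyte markers were measured, and their mean level was 6.80 to 8.18 on the Mock arrays, 7.29 to 8.14 on the dKDM2, 7.34 to 7.87 on the dRING, 7.78 to 8.36 on the PC and 7.23 to 7.74 on the PH arrays. On the arrays labelled PSC it was 6.36 to 7.03. The gene eater, which encodes a phagocytic receptor of plasmatocytes, fell by 3.13 on the log2 scale after PH depletion (SE 0.50, limma adjusted p = 2.31e-05) and by 4.59 on the arrays labelled PSC (SE 0.50, limma adjusted p = 3.08e-07), the same 2 groups in which collagen IV signals were lowest. The scavenger receptor gene Sr-CI fell by 4.04 on the arrays labelled PSC (SE 0.78, limma adjusted p = 0.000565). The marker He, at -3.39 on the same arrays, was called (limma adjusted p = 0.0321) but not with the block (-2.40, limma adjusted p = 0.287). On those arrays 2 of the 9 markers rose and 3 fell, a share of 55.6% against 16.5% of all genes. The 2 that rose were ush (1.82), which encodes a transcription cofactor of blood cell development, and Hml (0.59). After PH depletion 1 rose and 2 fell, 33.3% against 34.9%. The one that rose was crq (1.91, limma adjusted p = 0.000709), which encodes a receptor for apoptotic cells. After dKDM2 depletion 3 rose and 0 fell, 33.3% against 33.1% of all genes, namely ush (1.61), crq (1.32) and Pvr (1.07), the last encoding a receptor tyrosine kinase, and 0 of the 9 rose there against Mock arrays 1 to 3 without the block. After PC depletion 3 rose and 0 fell, 33.3% against 4.54%, namely Hml (1.58), ush (1.36) and NimC1 (0.27), and with the block ush and NimC1 were not called. After dRING depletion limma called 0 of 9, with 3 at an unadjusted p under 0.05. The part of this in the basement membrane results was not tested.

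Fat body and muscle markers were at or near the lower limit, and crystal cell markers were dim. The 4 crystal cell markers had a mean level of 2.38 to 3.48 on all arrays, with PPO1 at the lower limit on all arrays of dRING, PC, PH and PSC. Among them peb, which encodes a zinc finger transcription factor, rose from 2.28 in Mock to 4.71 after PH depletion (2.43, SE 0.10, limma adjusted p = 7.42e-15) and to 3.19 after PC depletion (0.91, SE 0.10, limma adjusted p = 2.74e-06). Both calls were kept against Mock arrays 1 to 3, without the block and with it, although the block is no paired test for PH. The other 3 were not called in any depletion, and the highest crystal cell marker means, 2.94 to 3.48, were those of the PH arrays. Of 8 fat body markers 5 had a probe set, and their mean level was 2.27 to 2.44, with Yp1 at the limit on all arrays of all 6 groups. Fbp2 was called higher by 0.25 on the arrays labelled PSC (limma adjusted p = 0.0404), a call not kept on the deposited values or with the block. Of 5 muscle markers 2 had a probe set, with a mean level of 2.27 to 2.92. The 4 lamellocyte markers had a mean level of 5.29 to 7.16. Against all Mock arrays limma called 0 of 4 in each depletion, where 2.77% (dRING) to 34.9% (PH) of all genes were called. At an unadjusted p under 0.05 there were 2 after PH, 1 on the arrays labelled PSC and 0 in the rest. Against Mock arrays 1 to 3 without the block 2 rose after PH depletion, where 25.9% of all genes were called. With the block, no paired test here, 2 rose after PH and 1 after dKDM2 depletion. On the deposited values 1 fell on the arrays labelled PSC.

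Across the 11 Mock arrays numbered 4 to 14, without the 3 arrays that lay apart, the laminin chains varied together. Pearson's r was 0.948 between LanB1 and LanB2 (Spearman's rho 0.911), with permutation p-values of 3e-05 and 0.00026 and adjusted values of 0.00072 and 0.00306 over 36 pairs. It was 0.915 between LanA and LanB2 and 0.885 between LanA and LanB1, and without the 2 arrays farthest from the median the 3 values were 0.950, 0.896 and 0.825. For Col4a1 and vkg r was 0.791 (rho 0.673, permutation p = 0.00475 and 0.0271, adjusted 0.0172 and 0.0814) and 0.787 without 2 arrays. SPARC varied apart from the others, with r from -0.0367 to 0.279 over its 8 pairs, none at an adjusted p under 0.05. None of the 8 pairs with trol passed either, with r from -0.283 to 0.554. Nor did any pair with Pxn, where the lowest adjusted permutation p was 0.0698, with vkg (r = 0.677). All 10 pairs at an adjusted p under 0.05 lay among Col4a1, vkg, the laminin genes and Ppn. The median r was 0.532 over the 36 pairs and -0.00459 over all pairs of 5490 genes, and what these arrays share (culture, labelling or hybridisation) is not known.

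The genes with the pattern most like that of collagen IV were found by Pearson's r with the mean of Col4a1 and vkg over the 29 arrays, as a description. They were Ids (0.898), CG7530 (0.854), CDase (0.850), spz (0.845) and CG14273 (0.837). LanB1 ranked 9 among all other genes tested (0.814), LanA 58, Pxn 60 and LanB2 65. SPARC ranked 413, Ppn 659, trol 7735 (-0.14) and Ndg 10993.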

How the data were processed

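Total RNA (7 micrograms per labelling, integrity number above 8) was measured on 29 arrays in 6 groups. The authors deposited log2 signals per probe set with a common lower limit of 2.27, at which 41.9% of values lay, and the tools given per the submitters' processing notes are RMA and GCRMA, with no version or role for either. Genome build and any scaling between arrays are not given in the sources used here.

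Of 18769 gene probe sets, 13647 name 1 gene, 13544 of these were matched to RefSeq by gene number, 402 name several genes and 4720 are not named here. The annotation was used for names and neighbours alone. The brightest probe set stood for each gene, and 11677 of 11982 genes were tested, leaving out 305 at the limit on all arrays. Array medians differed by more than 0.1 (2.27 to 2.47), so arrays were quantile normalized. A limma model (version 3.58.1, R 4.3.3) of 6 group means with eBayes and an intensity trend was fitted to all arrays, tests were two-sided, and p-values were adjusted by Benjamini and Hochberg over all genes. The steps were tested on simulated data. SD is over arrays and SE is from limma. Correlations used 100000 permutations (Python 3 with numpy). The number of arrays limits the precision.

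To see whether the replicate numbers pair samples, deviations of arrays 1 to 3 from their group mean were correlated across genes. Groups were counted as paired where all 3 correlations were above 0.1. Correlations between unlike numbers were not computed. The correlations were 0.728 to 0.840 between Mock and dRING, 0.698 to 0.800 between Mock and PC and 0.617 to 0.739 between Mock and PSC, so these pair. They were -0.110 to 0.0607 between Mock and dKDM2 and 0.0515 to 0.152 between Mock and PH, so these do not. Among the depletions dRING, PC and PSC pair with each other (0.694 to 0.923). By this rule dKDM2 pairs with PH (0.146 to 0.598), and the other pairs do not. The pairing of dKDM2 with PH is weak, since its lowest value is below the highest for Mock and PH, 0.152. In Mock, dRING, PC and PSC, replicates 1 and 2 were nearly alike (r = 0.9983 to 0.9992). The check there sets replicate 3 apart and cannot tell number 1 from number 2. The block counts numbers 1 and 2 as separate pairs, so its p-values there can be too small. Values with the number as a block stand beside results. Where the numbers do not pair, as for dKDM2 and PH with Mock, they are no paired test.

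The members, gene lists, tests and alternatives were chosen with earlier results of these data known. All 10 members are named in every comparison. From each pathway list, some of the 3 called genes with the largest change in each depletion were named, and the 5 genes most alike by correlation. Alternatives were other scalings, a filter on dim genes (above 4 on at least 3 arrays), the mean over probe sets, subsets of Mock arrays, the block and leaving out each array. Chosen after seeing the data were Mock 4 to 14 alone, averaging replicates 1 and 2, leaving out the dKDM2 and PH arrays or the arrays labelled PSC, and fitting every probe set of trol and Pxn.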

Additional observations from a re-analysis of the deposited data

How the results depend on the processing

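The calls of SPARC after dKDM2 and PH depletion and on the arrays labelled PSC, and their direction, were kept in every alternative run that has these arrays. Member counts moved most with the Mock arrays. Against Mock 1 to 3 without a replicate block they were 6 after dKDM2, 3 after dRING and 2 after PC depletion, and 7 for both PH and PSC, with 39 calls between depletions. With the replicate block they were 7 (28.4% of all genes), 3, 3, 8 (31.1%) and 7, with 53 between depletions. Numbers do not pair dKDM2 or PH with Mock, so those block values are no paired test. Against Mock 4 to 14 the counts were 3 for dKDM2, 3 for dRING and 2 for PC. The difference from Mock 1 to 3 is the same with and without the block, and for 24 of the 50 differences its sign was opposite to that with all Mock arrays. Of these, 13 passed the test in neither setting and 8 passed in both: Col4a1 (-1.62), LanB1 (-1.14) and trol (-1.50) after dKDM2, LanB1 (-1.34) after dRING, Pxn (-2.02) after PC, LanA (-1.24) and trol (-1.57) after PH depletion, and LanA (-0.98) for PSC. The other 3, LanA after dKDM2 (-0.48), LanB1 after PC (-1.11) and LanB2 after PH depletion (-0.76), passed with the block alone. Deposited values gave 4 calls for PH (41.8% of all genes). Median centring gave 2 for dKDM2 (53.2% of all genes), 5 for PH (60.5%) and 29 between depletions (25.8%), and turned Ndg after PH depletion to -0.059 near the limit. The dim filter gave 1 call for dRING (9.15% of all genes passing it) and 1 for PC (11.4%). A fit without the dKDM2 and PH arrays also gave 1 for dRING (2.81% of all genes) and 1 for PC (4.42%). With replicates 1 and 2 averaged there were 2 calls for PSC (10.8%) and 9 between depletions (6.19%). Leaving out each array in turn gave 0 to 1 calls for dRING (1.52% to 4.12% of all genes) and 0 to 1 for PC (2.76% to 5.31%). It gave 1 to 2 for PH (28% to 36.1%), 2 to 6 for PSC (11.2% to 17.1%) and 10 to 20 between depletions (9.04% to 12%). Genes near the lower limit (Ndg, and Ppn on some arrays) have understated differences. The cause of these changes was not tested.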
